A study of Arabidopsis thaliana with 4 samples.

Results

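The phytochrome, PIF and shade regulators described here are 10 genes of *Arabidopsis thaliana*: the photoreceptor genes *PHYA* (AT1G09570) and *PHYB* (AT2G18790), the PIF genes *PIF1* (AT2G20180), *PIF3* (AT1G09530), *PIF4* (AT2G43010) and *PIF5* (AT3G59060), the PIF-like genes *PIL1* (AT2G46970) and *PIL2* (AT3G62090, also called *PIF6*), and the shade repressor genes *PAR1* (AT2G42870) and *PAR2* (AT3G58850). They were taken from 27444 protein-coding genes on the 5 chromosomes. A member was called bound if any listed FUL binding site had its maximum inside the gene's window, which opened 3000 bp before the start codon and closed 1000 bp after the stop codon. By this rule 6 of the 10 members, *PHYA*, *PIF4*, *PIL1*, *PIL2*, *PAR1* and *PAR2*, had a site, and *PHYB*, *PIF1*, *PIF3* and *PIF5* had none. The 6 bound members held 7 of the 2831 sites of the list.

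The sites come from ChIP-Seq, in which chromatin bound by a protein is precipitated and sequenced. FRUITFULL (FUL), a MADS-domain transcription factor best known for its role in the growth of the fruit, was precipitated with a GFP antibody from pistils and siliques of stages 12 to 16. All plants, also those of the input, were *ful-1* mutants in a Col/Ler background that carried pFUL:FUL-GFP, so the *FUL* promoter set in which cells the fusion protein was present. There were 2 ChIP samples and 2 input samples, with about 1 g of tissue for each replicate. The labels of the plants do not say whether the transgenic line was derived from a single transformant. The deposited list gives 1 score per site, in which both replicates and the input were combined, so no spread between replicates could be given for any value and no difference was tested.

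Phytochromes are photoreceptors that sense red and far-red light, and in active form they enter the nucleus and cause the breakdown of PIF proteins. PIFs are bHLH transcription factors that bind the G-box, CACGTG, and promote the elongation growth seen in shade and warmth. PAR1 and PAR2 are HLH proteins that are induced by shade and dampen the response by pairing with PIFs, whereas MADS-domain proteins such as FUL bind a different element, the CArG box (CC, then 6 bases of A or T, then GG).

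The sequences around the site maxima of the PIL and PAR pairs are shown first, since these members had the G-boxes and the CArG box nearest to a maximum. Each runs 100 bp to both sides of the maximum, 5′ to 3′ on the strand of the gene, read from the TAIR10.1 genome of RefSeq. Capitals mark G-boxes and, in *PAR1*, also the CArG box, which stands before its G-box without overlapping it.
PIL1 site, chr2:19298893-19299093 (minus strand): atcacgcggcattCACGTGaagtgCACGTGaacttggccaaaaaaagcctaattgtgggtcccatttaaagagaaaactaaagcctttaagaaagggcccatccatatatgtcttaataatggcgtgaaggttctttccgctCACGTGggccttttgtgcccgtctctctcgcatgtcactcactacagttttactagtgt
PIL2 site, chr3:22991141-22991341 (minus strand): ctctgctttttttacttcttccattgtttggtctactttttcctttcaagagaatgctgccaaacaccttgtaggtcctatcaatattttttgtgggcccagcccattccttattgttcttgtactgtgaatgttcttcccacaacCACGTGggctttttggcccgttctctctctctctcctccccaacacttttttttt
PAR1 site, chr2:17838404-17838604 (minus strand): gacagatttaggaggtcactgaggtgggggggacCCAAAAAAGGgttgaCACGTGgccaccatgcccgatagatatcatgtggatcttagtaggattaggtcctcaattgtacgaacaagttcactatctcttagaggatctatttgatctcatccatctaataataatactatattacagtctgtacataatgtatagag
PAR2 site, chr3:21761198-21761398 (minus strand): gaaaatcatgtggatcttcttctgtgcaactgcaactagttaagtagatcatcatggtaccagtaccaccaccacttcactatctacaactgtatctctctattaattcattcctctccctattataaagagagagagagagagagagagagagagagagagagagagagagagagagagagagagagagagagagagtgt

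The *PIL1* sequence contained 3 G-boxes, the *PIL2* and *PAR1* sequences 1 each, and the *PAR2* sequence none. The *PAR2* sequence instead had near its end a run of 70 bp of alternating g and a, from its base 129 to its base 198. It was the only one of the 2831 sites with such a dinucleotide repeat of 50 bp or more within 100 bp of the maximum.

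Since the members were chosen with earlier results of this list known, the share of bound members and their scores are only a description. Some were chosen because the study names them as FUL targets, and its targets include *PHYA*, *PIL1*, *PIL2*, *PAR1* and *PAR2*. It also names a PIF gene *PIL4*, and whether *PIF4* is meant was not established. That the bound members stay bound at higher score limits is therefore no separate support. Among the members 6 of 10 (60.0%) had a site of any score, against 3830 of the 27444 protein-coding genes (14.0%) by the same rule. When only sites with at least the median score of the list (4.43) were counted, the same 6 members remained, against 2186 of all protein-coding genes (7.97%). With sites at or above the upper quartile of the scores (6.81) the number of members was again 6, against 1081 of all protein-coding genes (3.94%). The number of members depended on the window and the assignment. With only 1000 bp upstream it was 3 (*PIF4*, *PIL2* and *PAR1*), against 9.70% of all protein-coding genes. When each site was given only to the nearest coding gene it was 4, without *PHYA* and *PIL1*, the members with the highest scores, against 8.22% of all protein-coding genes. The median of the best score per bound gene was 10.65 for the 6 members and 4.43 for the 3830 genes.

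**Figure D1:**
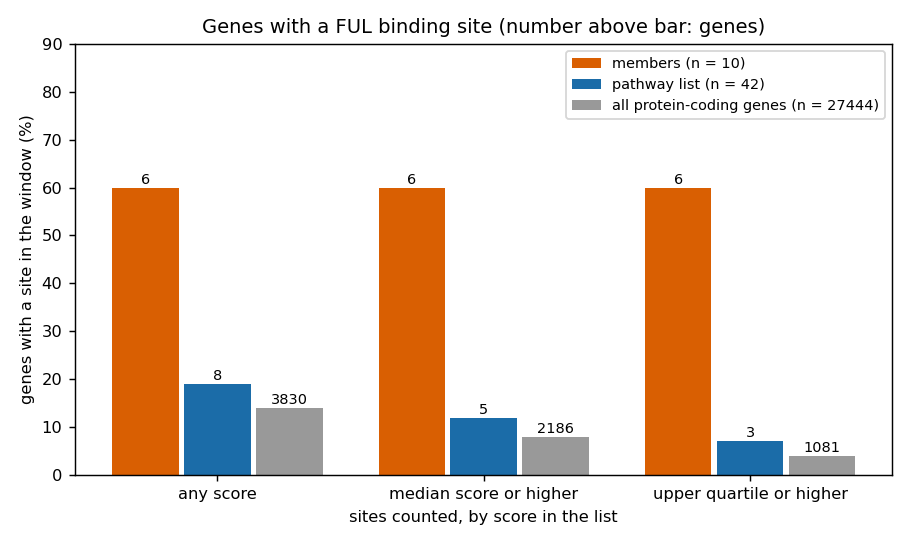
Share of genes with a FUL binding site in their window (vertical axis, %), for sites of any score, of the median score or higher and of the upper quartile or higher. Orange bars are the 10 members, blue bars the pathway list of 42 other light and shade genes and grey bars all 27444 protein-coding genes, and the number above a bar counts genes. At each of these score limits the members stay at 6 of 10, while the other bars become lower. The members were chosen with earlier results of this list known, so the difference is only a description.

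The scores have no unit. They ran from 2.99 to 1071.13 over the list, with only 234 different values, so that many sites share a score. The 7 member sites had scores of 3.4 to 34.73 with a median of 8.71. Their lengths ran from 26 to 414 bp with a median of 312 bp, against a median of 124 bp for all sites and 287 bp for the 752 sites at or above the upper quartile.

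**Figure D2:**
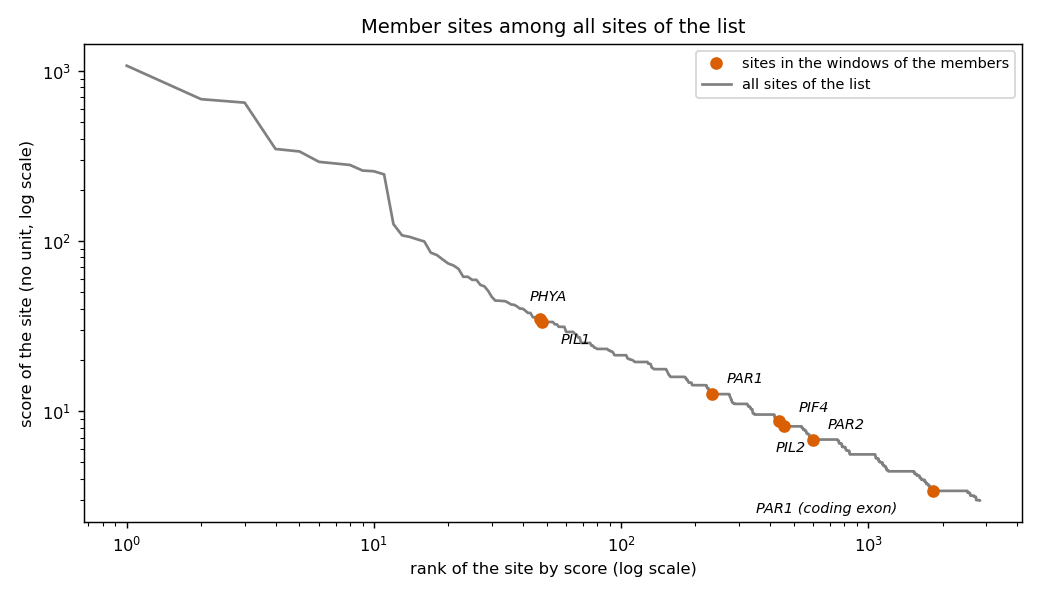
Score of each of the 2831 sites (vertical axis, no unit, log scale) against its rank in the list (horizontal axis, log scale). Orange points are the 7 member sites and the grey line is the whole list. The sites of *PHYA* and *PIL1* lie at ranks 47 and 48, and the *PAR1* site in the coding exon lies on the long flat stretch at 3.4.

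Among the photoreceptor genes, *PHYA* was bound and *PHYB* was not. *PHYA* encodes the phytochrome that senses far-red light and is abundant in dark-grown seedlings. Its site, chr1:3101153-3101565, had a score of 34.73 and rank 47, and no other site of the list had this score. Only 1.62% of all sites scored higher, and 53 protein-coding genes had a best score at least as high.

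The maximum at 3101279 lay 1852 bp before the *PHYA* start codon that is nearest to it and 2387 bp upstream of the farthest of 3 annotated start codons. It lay 460 bp upstream of the transcript start, on the other side of a gap of only 329 bp to the neighbouring coding gene. The maximum fell in the untranslated exon of this neighbour, AT1G09575, which is annotated as a calcium uniporter-like protein, 572 bp downstream of its stop codon. The site is therefore also counted for AT1G09575, whose stop codon is nearer to it than the *PHYA* start codon.

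No CArG box and no G-box lay in the *PHYA* site or within 100 bp of its maximum. A CArG box with 1 mismatch lay 2 bp from the maximum, at chr1:3101277-3101286, and is shown because it was the closest CArG-like sequence to a maximum among the member sites. Capitals mark the box on the minus strand, with 10 bp to each side. The substitution is C1A, counted from the first base of the box with the base of the motif written first.
PHYA CArG-like sequence: ttatggaggcACATTTTTGGtccaacatag

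*PHYB*, the main receptor of red light and of the red to far-red ratio that signals shade, lies at chr2:8139756-8144461 on the plus strand. Its nearest site had its maximum 22162 bp before the start codon, with a score of 4.43 (rank 1207), in an intergenic region. The *PHYB* window held 4 G-boxes, 3 of them at 1551, 467 and 432 bp upstream of the start codon and 1 in a coding exon, and none of the 4 was in a listed site. The best local match of the *PHYA* site sequence in the 3000 bp upstream of *PHYB* was only 23 alignment columns long, with 82.6% identity.

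Of *PIF1*, *PIF3*, *PIF4* and *PIF5* only *PIF4* was bound. PIF4 drives elongation at warm temperature and in shade. Its site, chr2:17886319-17886733, had a score of 8.14 and rank 457, a score shared by 82 sites, and 770 protein-coding genes had a best score at least as high. It was 414 bp long, the longest of the member sites, followed by that of *PHYA* with 412 bp.

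The maximum at 17886505 was 372 bp upstream of the nearer and 498 bp upstream of the farther of 2 annotated *PIF4* start codons, and 404 bp inside the transcript, in the 5′ untranslated exon. It was the nearest to a start codon of the 6 upstream sites. The long non-coding RNA gene AT2G09410 also had the site in its window, 1641 bp upstream of it. There was no CArG box in the site, and 1 G-box lay within its limits, 163 bp from the maximum and 535 bp before the start codon.

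*PIF5*, the close relative that acts with *PIF4* in shade and is called *PIL6* in the annotation, had no site in its window. It lies at chr3:21827905-21830837 on the minus strand, and its nearest site was 23306 bp downstream of the stop codon, with a score of 3.91, in a coding exon of *PME61*. The *PIF4* site sequence nevertheless had a similar stretch upstream of *PIF5*. The match covered 83 alignment columns, of which 63 (75.9%) were identical, with a longest exact run of 15 bp. It ran from 552 to 473 bp upstream of the *PIF4* start codon and from 689 to 608 bp upstream of that of *PIF5*. Both stretches contained a G-box, which are shown here in capitals with 10 bp to each side on the strand of the gene, since one of this pair lay in a listed site and the other did not.
PIF4 G-box, chr2:17886330-17886355 (plus strand), in the site: cagaacttgcCACGTGtcgttcattt
PIF5 G-box, chr3:21830554-21830579 (minus strand), in no site: gacaattcgcCACGTGtcggtcatcc

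The *PIF5* window held 3 G-boxes in all, at 671 and 1104 bp before the start codon and 490 bp past the stop codon. The matching stretch of *PIF4* did not cover the maximum of the site.

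*PIF1*, which holds back seed germination in the dark and is called *PIL5* in the annotation, lies at chr2:8704024-8707009 on the minus strand. Its nearest site lay 11853 bp downstream of the stop codon, was 17 bp long and had a score of 3.4. The window held 1 CArG box in an intron, 2126 bp after the start codon, and 1 G-box in a coding exon. *PIF1* had the lowest GC content upstream of the 10 members, 26.5% over 3000 bp, against a median of 35.0% for all protein-coding genes.

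*PIF3*, the first PIF to be isolated as a partner of phytochrome, lies at chr1:3075768-3079654 on the plus strand and came closest to being counted. A site at chr1:3072626-3072846 with a score of 9.55 (rank 347) had its maximum 4537 bp before the *PIF3* start codon, in an intergenic region that is in the window of AT1G09520. It was 220 bp long and had neither a CArG box nor a G-box within 100 bp of the maximum. Its score was higher than those of the sites of *PIL2*, *PIF4* and *PAR2*. *PIF3* had a CArG box 48 bp upstream of its start codon, in the 5′ untranslated exon, and a G-box in a coding exon, and neither was in a listed site.

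Both PIF-like genes were bound. *PIL1* is one of the genes most rapidly induced by shade. Its site, chr2:19298854-19299204, had a score of 33.42 and rank 48, shared by 6 sites, and 65 protein-coding genes had a best score at least as high. The site was 350 bp long and intergenic, with its maximum at 19298993, 1315 to 1582 bp upstream of 3 annotated start codons and 1135 bp upstream of the transcript start. The meiotic chromosome axis gene *ASY3* (AT2G46980) shares the site, with its stop codon nearer, at 875 bp.

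In *PIL1* all 3 G-boxes of the window lay in the site, at 45, 73 and 84 bp from the maximum. They were 1270, 1388 and 1399 bp upstream of the start codon. Sites with 3 or more G-boxes within 100 bp of the maximum were few, 13 of the 2831 in the list (0.459%). No exact CArG box was present, but 3 CArG boxes with 1 mismatch lay 7, 34 and 58 bp from the maximum.

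*PIL2* is best known from developing seeds, where it affects dormancy. Its site, chr3:22991029-22991297, had a score of 8.71 and rank 435, shared by 9 sites, and 631 protein-coding genes had a best score at least as high. The site was 268 bp long and intergenic, with its maximum at 22991241, 695 or 746 bp before the start codon, depending on which of 2 annotated ones is used, and 532 bp before the transcript start. The long non-coding RNA gene AT3G09745 lay with its end 274 bp from the maximum and shares the site.

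The G-boxes upstream of *PIL2* were spaced in part like those of *PIL1*. Counted from the gene, the first and the second G-box were 118 bp apart in *PIL1* and 161 bp apart in *PIL2*, and the second and the third were 11 bp apart in both. In *PIL2* the first G-box, 49 bp from the maximum and 646 bp upstream of the start codon, was in the site, whereas the other ones, at 112 and 123 bp from the maximum, lay just outside it. The best match of the *PIL1* site upstream of *PIL2* was 43 of 53 columns (81.1%), around the second and the third G-box of *PIL2*. It lay 846 to 796 bp before the *PIL2* start codon, outside the *PIL2* site. In the other direction the match was a different one. An alignment of the *PIL2* site to the *PIL1* upstream region matched 61 of 80 columns (76.25%) around the first G-box, and 75 bp of the *PIL1* stretch lay in the *PIL1* site. The stretches, from 694 to 621 bp upstream in *PIL2* and from 1319 to 1245 bp upstream in *PIL1*, are shown because both were in a listed site, with the G-box in capitals.
PIL2 stretch, chr3:22991167-22991240 (minus strand): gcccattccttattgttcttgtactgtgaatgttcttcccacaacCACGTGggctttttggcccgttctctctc
PIL1 stretch, chr2:19298923-19298997 (minus strand): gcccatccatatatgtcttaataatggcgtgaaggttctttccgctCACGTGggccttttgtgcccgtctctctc

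Both shade repressor genes were bound at almost the same distance from the start codon, *PAR1* at 1317 bp and *PAR2* at 1380 bp. Each codes for a short protein from a coding sequence of 357 bp, the shortest of the 10 members, and they therefore had the shortest windows, of 4357 bp, against a median of 5568 bp for all protein-coding genes.

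*PAR1* was the only member with more than 1 site. The upstream site, chr2:17838384-17838696, had a score of 12.59 and rank 233, shared by 41 sites, and 375 protein-coding genes had a best score at least as high. Its maximum at 17838504 was 886 bp upstream of the transcript start, in an exon of the long non-coding RNA gene AT2G09405. The second site, chr2:17836894-17836920, was 26 bp long and had a score of 3.4, a score that 689 sites of the list have, and it lay in the coding exon 293 bp after the start codon. The gene AT2G42865 had both sites in its window, at 2910 and 1300 bp upstream.

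The upstream *PAR1* site held the only exact CArG box found in a member site, at chr2:17838561-17838570, 61 bp from the maximum and 1378 bp upstream of the start codon. A G-box lay 48 bp from the maximum, at 1365 bp upstream. Sites with both elements within 100 bp of the maximum numbered 19 of 2831 in the list (0.671%) and 17 of the 752 sites at or above the upper quartile (2.26%).

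The *PAR2* site, chr3:21761237-21761442, had a score of 6.81, exactly the upper quartile of the list, and rank 598, shared by 155 sites. It was 205 bp long and intergenic, with its maximum at 21761298, 908 bp upstream of the transcript start. The site is shared with *PMD1* (AT3G58840), a gene for a protein of peroxisome and mitochondrion division, which lay 2843 bp away. The run of alternating g and a reached beyond the listed start of the site, so that only a part of it was inside. It lay on the side of the maximum that faces the gene. On the other side a G-box lay in the site 119 bp from the maximum and 1499 bp before the start codon. The part of the repeat in the score and the position of the maximum was not tested.

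The *PAR1* and *PAR2* sites shared a similar stretch, which covered the maximum in neither site. Its nearer end lay 13 bp from the maximum in *PAR1* and 83 bp from it in *PAR2*. The *PAR2* site matched the *PAR1* upstream region over 55 columns, of which 43 (78.2%) were identical, from 1515 to 1463 bp upstream in *PAR2* and from 1383 to 1330 bp upstream in *PAR1*, and 54 bp of the *PAR1* stretch lay in the *PAR1* site. In the sequences, capitals mark the G-box that both have and the CArG box that *PAR1* alone has.
PAR2 stretch, chr3:21761381-21761433 (minus strand): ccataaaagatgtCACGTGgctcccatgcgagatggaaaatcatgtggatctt
PAR1 stretch, chr2:17838517-17838570 (minus strand): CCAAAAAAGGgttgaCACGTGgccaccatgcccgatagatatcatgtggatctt

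**Figure D3:**
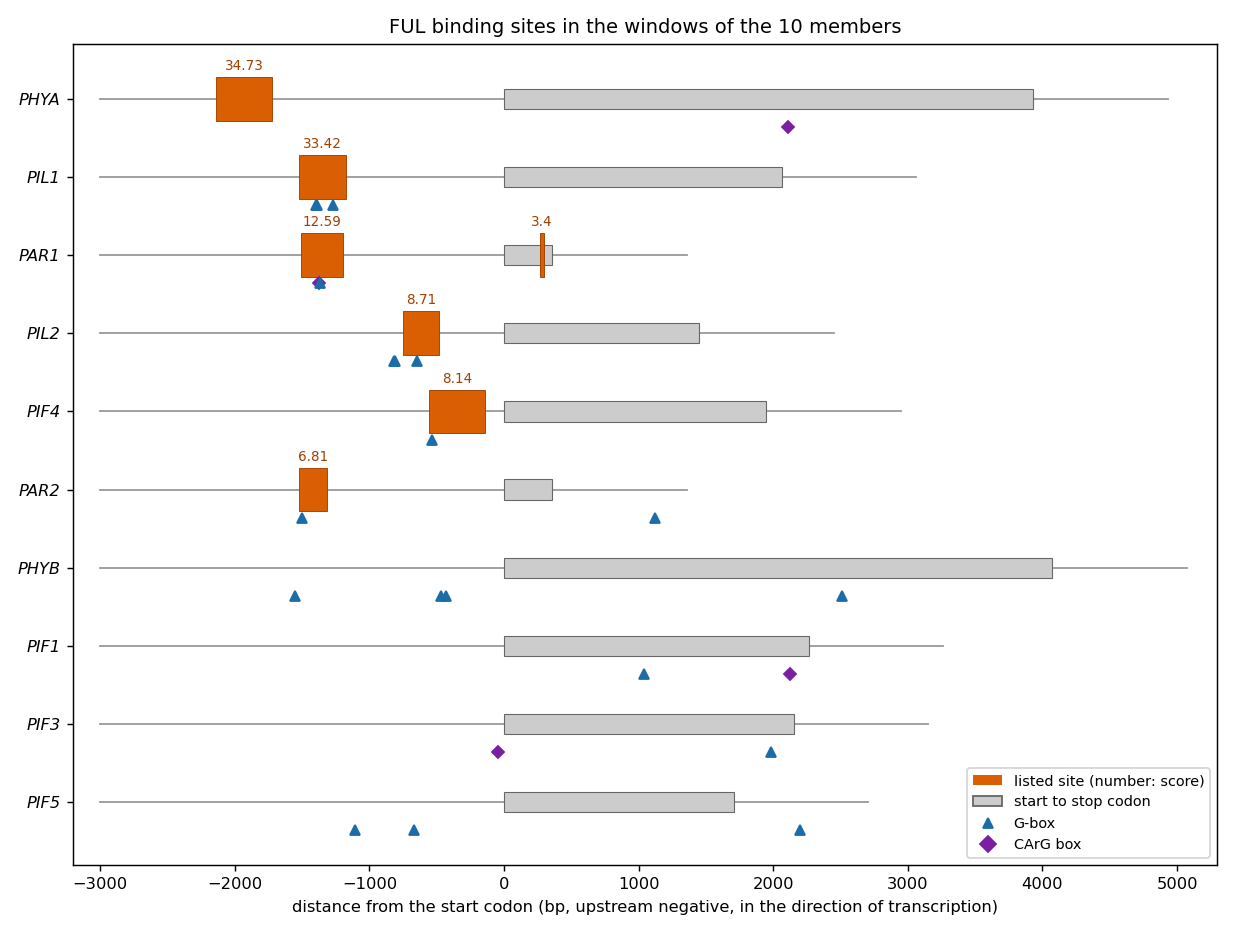
Windows of the 10 members along the distance from the start codon (horizontal axis, bp, upstream negative), with bound members above and unbound members below. Orange boxes are listed sites with their score, grey boxes span start to stop codon, blue triangles are G-boxes and purple diamonds CArG boxes. The best site of each bound member lies upstream of the start codon, 372 to 1852 bp away, and 7 of the 19 G-boxes but 1 of the 4 CArG boxes lie in a site.

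Over all members the elements were set beside those of the list. A G-box lay within 100 bp of the maximum in 3 of the 7 member sites (42.9%), against 134 of the 752 sites at or above the upper quartile (17.8%), 371 of all 2831 sites (13.1%) and 154 of 5536 windows of the same length 3000 bp away from sites (2.78%). Between the listed start and end of a site, a G-box was present in 5 of the 7 member sites. These were the sites of *PIF4*, *PIL1*, *PIL2* and *PAR2* and the upstream site of *PAR1*. The count was 172 of the 752 sites at or above the upper quartile (22.9%) and 315 of all sites (11.1%). Site length was not adjusted for. Its median was 312 bp in member sites, 287 bp in the 752 sites and 124 bp in all sites. Within 50 bp of the maximum only 1 member site had a whole G-box, and 0 had a CArG box. A CArG box lay within 100 bp of the maximum in 1 of the 7 member sites (14.3%), against 76 of the 752 sites (10.1%), 135 of all 2831 sites (4.77%) and 61 of the 5536 windows (1.10%). With 1 mismatch allowed, 4 of the 7 member sites had such a box, against 910 of all sites (32.1%). The 4 were the sites of *PHYA* and *PIL1* and both sites of *PAR1*. This share was not counted for the sites at or above the upper quartile or for the windows away from sites. The member sites include the paralogous pairs with shared sequence described above, so they do not count as independent.

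**Figure D4:**
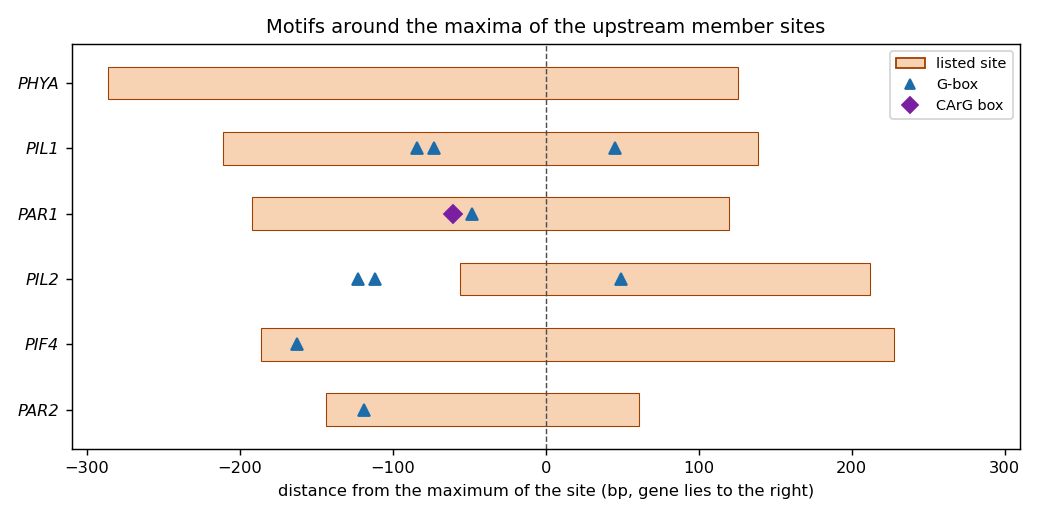
G-boxes (blue triangles) and CArG boxes (purple diamonds) along the distance from the maximum (horizontal axis, bp, with the gene to the right) of the 6 upstream member sites, ordered by score from *PHYA* at the top to *PAR2* at the bottom. Boxes show the limits of each listed site. *PHYA* has neither element, *PIL1* has 3 G-boxes and *PAR1* has a CArG box beside a G-box.

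The bound and the unbound members were then set side by side for motifs, base composition and gene spacing, which the rule did not use, and for window length, which it did. The whole windows of the 6 bound members held 10 G-boxes in 5 members, against 9 G-boxes in the 4 unbound members, each of which had at least 1. The number of G-boxes in the 3000 bp upstream ran from 0 to 3 with a median of 1 in the bound as well as in the unbound members, and 32.5% of all protein-coding genes had at least 1 there. CArG boxes with at most 1 mismatch numbered 4 to 6 in these 3000 bp in bound members and 1 to 8 in unbound members, with medians of 6 and 6.5. CArG boxes numbered 2 in windows of bound members, those of *PHYA* and *PAR1*, and 2 in windows of unbound members, those of *PIF1* and *PIF3*. The *PHYA* box was in a coding exon, 3961 bp from the maximum of the site.

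The GC content of the 3000 bp upstream ran from 30.8 to 35.8% with a median of 32.15% in bound members, and from 26.5 to 36.3% with a median of 31.35% in unbound members. The gap to the next coding gene upstream was shortest in *PHYA*, with 329 bp, and longest in *PIL2*, with 4976 bp. Its median was 2939 bp in bound and 2653 bp in unbound members. Window length ran from 4357 to 7930 bp in bound and from 5707 to 8073 bp in unbound members. In each of these measures the ranges of bound and unbound members overlapped, and with 6 and 4 genes that include close relatives no test was made.

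The other genes of the pathway were taken from a list of 42 genes of light and shade signalling. Of these, 8 (19.05%) had a site of any score, 5 (11.9%) a site of at least the median score and 3 (7.14%) a site at or above the upper quartile, against the 14.0, 7.97 and 3.94% of all protein-coding genes given above. The 8 bound genes had a median best score of 5.0. The 3 genes at or above the upper quartile were *SPA1*, *PKS2* and *UNE10*.

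*SPA1* (AT2G46340), which represses light signalling as a partner of the ubiquitin ligase COP1, had a site with a score of 25.16 (rank 69) that lay 2981 bp upstream of the start codon, close to the edge of the window, and that contained 1 CArG box. *PKS2* (AT1G14280), a gene for a phytochrome kinase substrate protein, had a site with a score of 18.89 (rank 132), 512 bp downstream of the stop codon. *UNE10* (AT4G00050), also called *PIF8*, had a site with a score of 6.81 inside the gene, 548 bp after the start codon. None of these 3 had a G-box within 100 bp of the maximum. Other genes with these 3 sites in their windows were not listed. The study gives a peak with the score of the *PKS2* site under a different gene.

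The 5 other bound genes of the list, named after their values were seen, had scores below the upper quartile. They were the shade-induced *ATHB2* with 5.57, the gynoecium genes *HEC1* with 4.43 and *HEC2* with 3.4, the blue light receptor gene *CRY2* with 3.4 and the phytochrome gene *PHYD* with 3.3. The sites of *HEC2*, *CRY2* and *PHYD* were shorter than 50 bp, and that of *CRY2* had the same listed start and end. Without such short sites 5 genes of the list were bound. The counts by class are to be read against the 14.0% of all protein-coding genes with a site, and with 2 to 11 genes a class they describe these genes only. By class, 1 of the 3 other phytochromes, 3 of the 9 PIF-type and related bHLH genes, 2 of the 11 genes for phytochrome transport, partners and light-signal repressors, 1 of the 5 HD-Zip II genes and 1 of the 2 blue light receptors had a site. None of the 8 light-signal transcription factor genes, *HY5* and *TOC1* among them, and none of the 4 shade auxin synthesis genes had a site in the window.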

How the data were processed

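ChIP and input DNA were sequenced from 2 samples each. The authors called sites with CSAR, with the input as control, on uniquely placed nuclear reads that SOAPv2 had aligned to TAIR9 (ungapped, 2 mismatches at most). Versions and CSAR settings are not given in the sources used here. The deposited list holds the position, length and score of each site, and the authors combined both replicates in this score. It is longer than the set of sites that the study reports below its false discovery rate limit and does not mark which sites passed, so that bound means listed here. The depth per library is unknown.

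Genes and sequences came from TAIR10.1 of RefSeq, with a newer annotation than TAIR10 and the outermost annotated start and stop codon. The TAIR10 releases kept the chromosome sequences of TAIR9, and 0 sites ended beyond a chromosome. Motifs were searched on both strands. Site sequences were aligned locally to the 3000 bp upstream of the closest relative. Only the best match was kept, and how well unrelated upstream sequences match was not tested. Python 3.11.15, numpy 2.4.6, pandas 2.3.3, Biopython 1.88 and matplotlib 3.10.9 were used. The assignment of sites to windows and the search for exact CArG boxes were tested on simulated data, and the other steps were not. The members and the pathway list were chosen with earlier results of these data known. The genes named were all 10 members, the genes that share their sites, the nearest site of each unbound member and the pathway genes at or above the upper quartile. The other pathway genes named, and the next sites of the bound members, were chosen after their values were seen. Alternatives concerned the score limit, gene ends, window, point of the site, assignment to the nearest gene and motif search. The innermost start codon, sites of at least 50 bp and the other G-box windows were added after seeing the data.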

Additional observations from a re-analysis of the deposited data

How the results depend on the processing

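The 6 bound members were the same at both score limits, with transcript ends, with the midpoint or any overlap of a site, and, in alternatives chosen after seeing the data, with the innermost start codon and with sites of at least 50 bp. With 1000 bp upstream, 3 members (*PIF4*, *PIL2* and *PAR1*) and 3 sites were left, against 2662 of all protein-coding genes (9.70%). With 5000 bp *PIF3* was added, giving 7 members, against 4955 (18.1%). When a site was given only to the nearest coding gene, *PHYA* and *PIL1* were lost, leaving 4 members. All protein-coding genes with a site numbered 2186 at the median, 1081 at the upper quartile and 2257 by the nearest gene, instead of 3830. For the pathway list the number was 5 at the median, 3 at the upper quartile, 4 with 1000 bp, 13 with 5000 bp and 5 with sites of at least 50 bp, instead of 8. Member sites with a CArG box numbered 0 within 50 bp and 4 with 1 mismatch, instead of 1. Those with a G-box numbered 1 within 50 bp, 5 within 250 bp and 5 within the site, instead of 3, and these windows were also chosen after seeing the data. No paired analysis was possible because the list holds 1 combined score per site. For the same reason no replicate could be left out.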

Other observations

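The next site outside the window was also noted for each bound member, after its values were seen. That of *PAR1* lay 6958 bp downstream of the stop codon, with a score of 8.71, in the windows of *PDF1* and *CYP718*. That of *PIF4*, 20538 bp downstream, had a score of 7.05 and lay in a coding exon of *IBH1*, which encodes an HLH protein of growth control. For *PIL1* it was 12392 bp upstream, with a score of 5.0, in a coding exon of the auxin transporter gene *ABCB4*. For *PIL2* it was 17148 bp downstream, with a score of 4.43, in a coding exon of *GLP10*. For *PAR2* it was 44965 bp upstream, with a score of 3.91, in a coding exon of *PME61*, and it is also the nearest site of *PIF5*. For *PHYA* it was 22819 bp downstream, with a score of 9.55, and it is also the nearest site of *PIF3*.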
